A study of Mus musculus with 14 samples.

Results

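Defensin genes encode small, disulfide-bonded peptides that kill or block microbes. The genes described here are the protein-coding genes of the mouse genome (mm10) whose symbol starts with Defa or Defb: 71 of 21887 protein-coding genes, of which 29 are alpha-defensin genes and 42 are beta-defensin genes. The choice rested on the symbol alone. Joined where neighbours lay under 1 Mb apart, they formed 5 clusters: Defb18 and Defb41 on chromosome 1, 11 beta-defensin genes on chromosome 2, 5 on chromosome 14, 14 in a proximal cluster on chromosome 8, and a distal cluster on chromosome 8 that held 39 genes, all 29 alpha-defensin genes and 10 beta-defensin genes.

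The study profiled chromatin by ChIP-seq in populations enriched for cardiomyocytes from C57BL/6J mice. The mice had undergone transverse aortic constriction (TAC), a surgical narrowing of the aorta that overloads the left ventricle, 1 week earlier, or were sham animals, whose treatment field in the labels reads as none. For each condition, 2 biological replicates were immunoprecipitated with antibodies to G9a, to dimethylated lysine 9 of histone H3 (H3K9me2) and to trimethylated lysine 27 of histone H3 (H3K27me3), and 1 input library was made, giving 14 libraries in all. The deposited tables list regions that differ between the conditions, so the cardiomyocyte label was not checked against marker genes here. The mice carried no transgene or deletion that the labels name, and how many animals went into each replicate was not given in the sources used here. In such bulk chromatin, a change in the share of another cell type and a change within the cells cannot be told apart.

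Alpha-defensins are made in the mouse mainly by Paneth cells of the small intestine, where Defa24 is a commonly used marker, and beta-defensins by epithelia of the skin, airways, kidney and male reproductive tract. Many beta-defensin genes are transcribed mostly in the epididymis, where the peptides coat sperm. G9a is a histone methyltransferase that deposits H3K9me2, and H3K27me3 is deposited by Polycomb repressive complex 2. Both marks are associated with genes that a cell type does not use.

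The RefSeq promoter table (GRCm38.p6, 250 bases before to 50 bases after the start of the gene) held 45 of the 71 genes, 16 alpha and 29 beta. Promoters of 7 genes are printed because results below turn on them. Each is written 5′ to 3′ along the gene. Capitals mark exact matches to TATAAA, a common form of the TATA box, and to CTTTGAT, the site bound by TCF/LEF factors. Both strands were searched, so that CTTTGAT on the other strand reads ATCAAAG. The promoter of Defb22 (chr2:152490089-152490388, minus strand) lay under regions of all 3 antibodies. That of Defb28 (chr2:152518005-152518304, plus strand) lay under regions of G9a and H3K27me3.
Defb22: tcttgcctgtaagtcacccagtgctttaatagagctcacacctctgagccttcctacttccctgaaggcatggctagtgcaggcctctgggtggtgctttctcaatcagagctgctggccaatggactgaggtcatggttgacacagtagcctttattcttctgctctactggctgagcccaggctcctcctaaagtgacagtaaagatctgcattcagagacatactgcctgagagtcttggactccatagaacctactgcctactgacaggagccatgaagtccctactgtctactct
Defb28: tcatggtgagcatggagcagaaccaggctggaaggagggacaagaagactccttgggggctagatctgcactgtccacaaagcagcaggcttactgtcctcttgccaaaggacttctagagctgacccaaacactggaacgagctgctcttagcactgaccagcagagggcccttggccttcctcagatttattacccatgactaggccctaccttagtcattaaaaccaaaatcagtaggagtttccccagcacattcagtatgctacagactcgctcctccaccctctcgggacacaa
The promoters of Defb3 (chr8:19293111-19293410, plus strand) and Defb46 (chr8:19239666-19239965, plus strand), both in the proximal cluster of chromosome 8, are shown because the G9a region with the lowest log2 difference of all defensin genes lay over the Defb3 promoter, and regions of both histone marks lay over that of Defb46. None of these 4 promoters held an exact match to either motif, and variants such as the tatataag of the Defb3 promoter were not counted.
Defb3: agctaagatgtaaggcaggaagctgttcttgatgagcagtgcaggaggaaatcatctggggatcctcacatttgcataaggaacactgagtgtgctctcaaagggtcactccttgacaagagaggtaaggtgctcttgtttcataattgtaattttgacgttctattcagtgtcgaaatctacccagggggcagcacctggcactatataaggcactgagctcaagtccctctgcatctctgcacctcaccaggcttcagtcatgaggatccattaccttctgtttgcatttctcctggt
Defb46: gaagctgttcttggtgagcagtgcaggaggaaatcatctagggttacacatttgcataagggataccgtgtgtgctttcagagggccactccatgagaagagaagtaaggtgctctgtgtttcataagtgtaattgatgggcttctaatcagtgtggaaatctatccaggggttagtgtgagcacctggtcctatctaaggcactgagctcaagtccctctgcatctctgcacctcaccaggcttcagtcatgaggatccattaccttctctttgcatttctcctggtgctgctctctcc
Among alpha-defensin genes, the promoter of Defa30 (chr8:21134400-21134699, plus strand) lay between the 2 H3K27me3 regions with the smallest p of that family. Defa35 (chr8:21064788-21065087, plus strand) had listed regions, whereas Defa36 (chr8:21427178-21427477, plus strand), whose promoter was 98.0% identical to it, had none.
Defa30: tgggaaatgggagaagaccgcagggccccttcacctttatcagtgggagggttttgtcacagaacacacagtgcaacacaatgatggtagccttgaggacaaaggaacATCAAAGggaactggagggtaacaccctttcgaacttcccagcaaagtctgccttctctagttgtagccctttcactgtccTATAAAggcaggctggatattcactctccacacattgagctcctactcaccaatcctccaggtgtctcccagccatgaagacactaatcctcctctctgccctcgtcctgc
Defa35: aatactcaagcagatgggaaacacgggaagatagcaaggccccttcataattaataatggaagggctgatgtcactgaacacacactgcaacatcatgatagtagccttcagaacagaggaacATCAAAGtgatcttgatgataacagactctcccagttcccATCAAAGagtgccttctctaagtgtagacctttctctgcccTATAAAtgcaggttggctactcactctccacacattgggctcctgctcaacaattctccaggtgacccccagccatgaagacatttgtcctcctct
Defa36: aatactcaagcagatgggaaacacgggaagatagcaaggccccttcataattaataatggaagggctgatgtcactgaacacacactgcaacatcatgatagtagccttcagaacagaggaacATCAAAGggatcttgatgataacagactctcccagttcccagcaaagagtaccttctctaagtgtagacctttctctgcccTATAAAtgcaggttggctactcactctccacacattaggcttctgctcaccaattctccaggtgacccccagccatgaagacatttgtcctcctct
TATAAA was found in 15 of 16 alpha-defensin promoters and in 5 of 30 beta-defensin promoters (Defb21 has 2 promoters in the table), against 13.6% of all 32851 promoters of the table. CTTTGAT was found in 13 of 16 and 0 of 30, against 3.73% of all. Matches were counted anywhere in the promoter, whose first 250 bases lie before the start of the gene. Those of TATAAA began at bases 177 to 222 in alpha-defensin promoters. In beta-defensin promoters they began at base 29 in Defb30, 30 in Defb23, 138 in Defb7, 216 in Defb15 and 221 in Defb48. Such matches describe the letters of these windows and not binding. The median promoter held 1 CG dinucleotide for alpha-defensin genes and 1.5 for beta-defensin genes, against 7 for all promoters.

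Each line of the authors' deposited tables gives a region, 4 whole-number values in 2 pairs and a p-value of the authors, at most 0.01 in every region described here. The tables do not say which pair is TAC and which is sham; the table names in the labels put sham before TAC, but no source states that the values follow that order. The pairs are therefore called the second and the first pair, and log2 differences were computed as second over first from the pair means plus 1. A region was assigned to a gene when it overlapped the gene body plus 2500 bp either side, and a region shared by neighbouring genes was counted once. The pairs are called apart where both values of the higher pair exceeded both values of the other. For G9a, the share of values at 0 over all regions was 9.34% and 0.545% in the second pair and 1.40% and 0.163% in the first, and the median value was 52 and 90 in the second pair and 77 and 94 in the first, so library 1 of the second pair differs from the rest. At defensin genes 8 of the 97 G9a regions were at 0 in that library alone, and values without it are given where it moves a result.

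Defensin genes held regions of both directions in all 3 tables. For G9a, 97 regions lay at defensin genes, 50 higher in the second pair against 47 in the first. For H3K9me2 there were 83, split 43 and 40, and for H3K27me3 there were 159, split 78 and 81. The split was thus close to even for each antibody, and second-pair regions made up 51.5% of the G9a, 51.8% of the H3K9me2 and 49.1% of the H3K27me3 regions of defensin genes, against 44.5%, 44.4% and 42.7% of all listed regions. The median log2 difference was 0.56 for G9a, 0.53 for H3K9me2 and -0.37 for H3K27me3, against -0.67, -0.66 and -0.58 over all regions. With an even split these medians sit at the edge of the gap between the directions, and they turned sign when libraries were left out.

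A region in either direction was listed for 39 defensin genes (54.9%) for G9a, against 84% of all protein-coding genes, for 42 (59.2%) for H3K9me2, against 58.1%, and for 47 (66.2%) for H3K27me3, against 66.7%. By direction, 26 defensin genes (36.6%) had a G9a region higher in the second pair. The share was 55.5% of all protein-coding genes and 35.2% of genes of at most 5000 bp. The short genes are the closer measure, since 60 of the 71 defensin genes are that short, but the rest are longer. For G9a higher in the first pair the count was 29 genes (40.8%), against 76.7% of all and 47.6% of short genes. For H3K9me2 it was 29 genes (40.8%) higher in the second pair, against 38.8% and 23.2%, and 28 genes (39.4%) higher in the first pair, against 48.1% and 24.8%. For H3K27me3 it was 32 genes (45.1%), against 50.4% and 41.7%, and 41 genes (57.7%), against 58.3% and 44.5%. The 60 short defensin genes alone compare like with like. For G9a, 21 of them had a region higher in the second pair, a share close to 35.2%. A region higher in the first pair was listed for 20 of them (33.3%), below 47.6%, and 12 of the 60 had regions of both directions. For H3K9me2 the counts were 24 and 22 (36.7%), above short genes in both directions. For H3K27me3, 23 (38.3%) had a region higher in the second pair, below 41.7%, and 31 (51.7%) one higher in the first, above 44.5%. The pairs were apart in 55 of 97 G9a regions (56.7%), against 61.3% of all, in 59 of 83 H3K9me2 regions (71.1%), against 67.9%, and in 104 of 159 H3K27me3 regions (65.4%), against 69.2%. All 3 tables listed 27 of the 71 genes, 18 genes were in 2 tables, 11 in 1 table and 15 in none. The same count was not made over all protein-coding genes or over short genes, so these numbers have no share to compare with.

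Coverage varied from cluster to cluster. Regions higher in the second pair covered 25.9% of the gene windows on chromosome 2 for G9a and 54.9% for H3K27me3, and on chromosome 1 they covered 0% for either antibody. In the proximal cluster of chromosome 8 they covered 1.06% for G9a and 7.39% for H3K27me3. Regions higher in the first pair varied less, between 1.68% and 6.44% for G9a and between 3.96% and 15.6% for H3K27me3 over the same groups of genes.

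**Figure D1:**
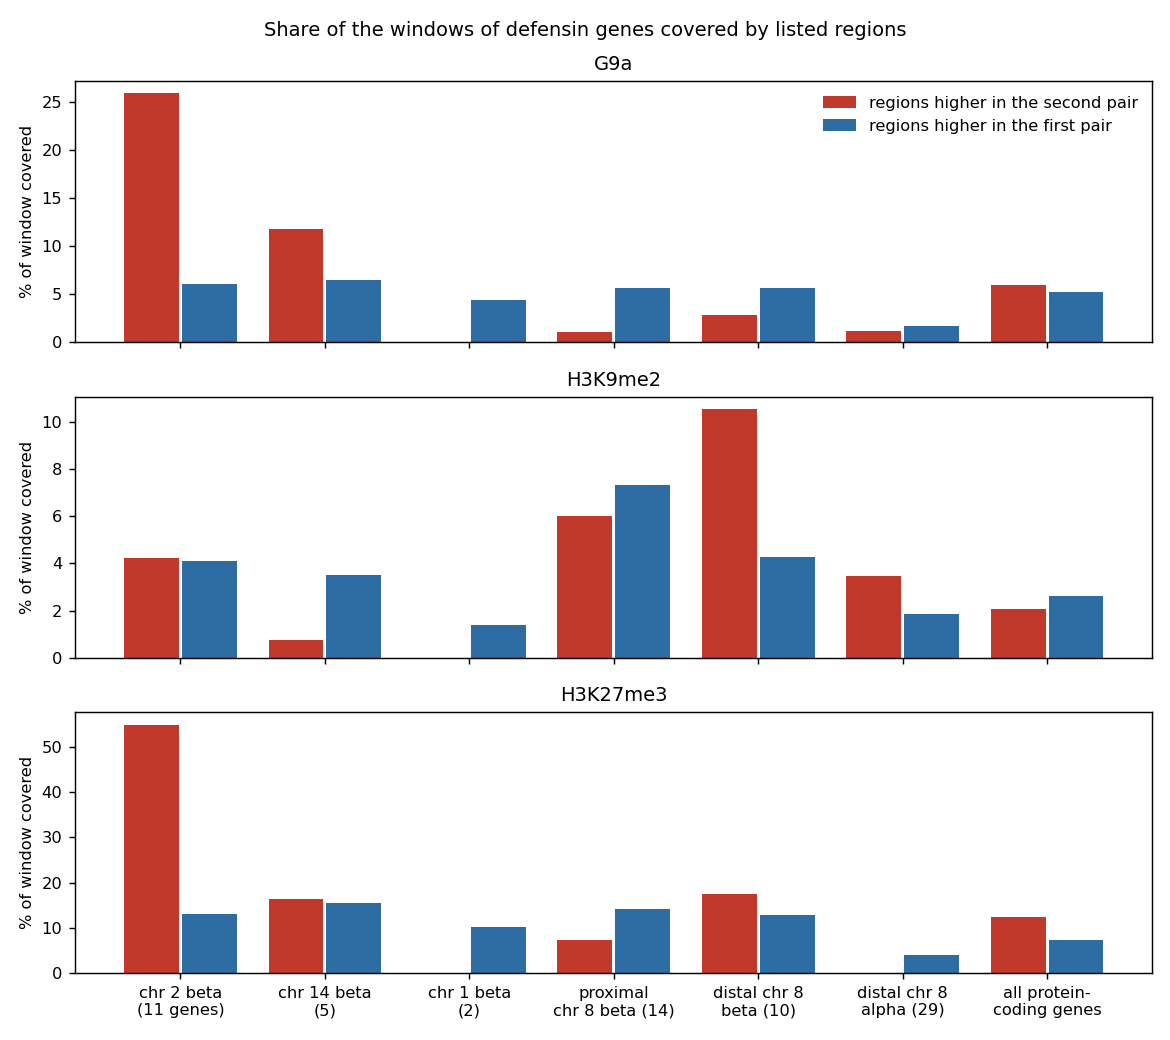
Percent of the gene windows (body plus 2500 bp either side) covered by listed regions, for the defensin clusters, with the distal cluster of chromosome 8 split into beta and alpha genes, and for all protein-coding genes; red bars are regions higher in the second pair and blue bars regions higher in the first, and each antibody has its own vertical scale. On chromosome 2 red bars reach 25.9% for G9a and 54.9% for H3K27me3, against 5.94% and 12.4% for all genes.

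On chromosome 2 (Defb23 to Defb25, chr2:152459055-152623053, 164 kb), all 11 genes had G9a and H3K27me3 regions higher in the second pair, against 55.5% and 50.4% of all protein-coding genes. For each of the 2 antibodies, 8 of the 11 genes (72.7%) also had regions higher in the first pair, against 76.7% and 58.3%. The median length of the 11 genes was 3295 bp. Among genes of at most 5000 bp the G9a and H3K27me3 shares were 35.2% and 41.7% for the second pair. For the first pair they were 47.6% and 44.5%, so the cluster lay above short genes in both directions. The 11 are genes of the epididymis and testis: Defb22 encodes a glycoprotein of the sperm coat, and in the rat Defb23 and Defb26 serve sperm motility. Of the 37 G9a regions, 28 were higher in the second pair, and the values over all 37 (33000 bp) summed to 6653 and 6112 in the second pair and to 2959 and 4694 in the first (log2 0.74). Of the 47 H3K27me3 regions, 33 were higher in the second pair, with sums over 72050 bp of 23891 and 20472 in the second pair and 15624 and 14740 in the first (log2 0.55). Here and for the other clusters the sums run only over regions that the authors listed as differing, so their direction follows from which regions were listed, and they describe those regions without testing the cluster. For H3K9me2 there were 7 regions in each direction, with sums of 943 and 1232 in the second pair and 1138 and 858 in the first (log2 0.12).

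G9a and H3K27me3 regions overlapped in part. Of the 28 second-pair G9a regions of the chromosome 2 cluster, 20 (71.4%) overlapped a second-pair H3K27me3 region, and 18 of the 33 H3K27me3 regions (54.5%) overlapped one of G9a. Of the 9 G9a regions higher in the first pair, 7 (77.8%) overlapped a second-pair H3K27me3 region, and 8 of those 33 regions (24.2%) overlapped one of these. Second-pair H3K27me3 regions covered 54.9% of these gene windows, and the overlap over all listed G9a regions was not counted. H3K27me3 regions of the second pair also lay under the promoters of 8 of the 9 genes with a promoter in the table, Defb26 being the exception, against 26.3% of all 27025 genes with a promoter. For G9a the count was 4 of 9 (Defb20, Defb21, Defb22 and Defb28), against 15.1%. Over all 45 defensin genes with a promoter, the counts in the second and the first pair were 8 and 5 for G9a, against 15.1% and 9.25% of all genes, 5 and 2 for H3K9me2, against 2.99% and 3.92%, and 14 and 4 for H3K27me3, against 26.3% and 9.23%. Regions around the cluster were also mostly higher in the second pair. Within 500 kb outside the cluster, 208 of 287 G9a regions (72.5%) and 131 of 211 H3K27me3 regions (62.1%) were so.

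**Figure D2:**
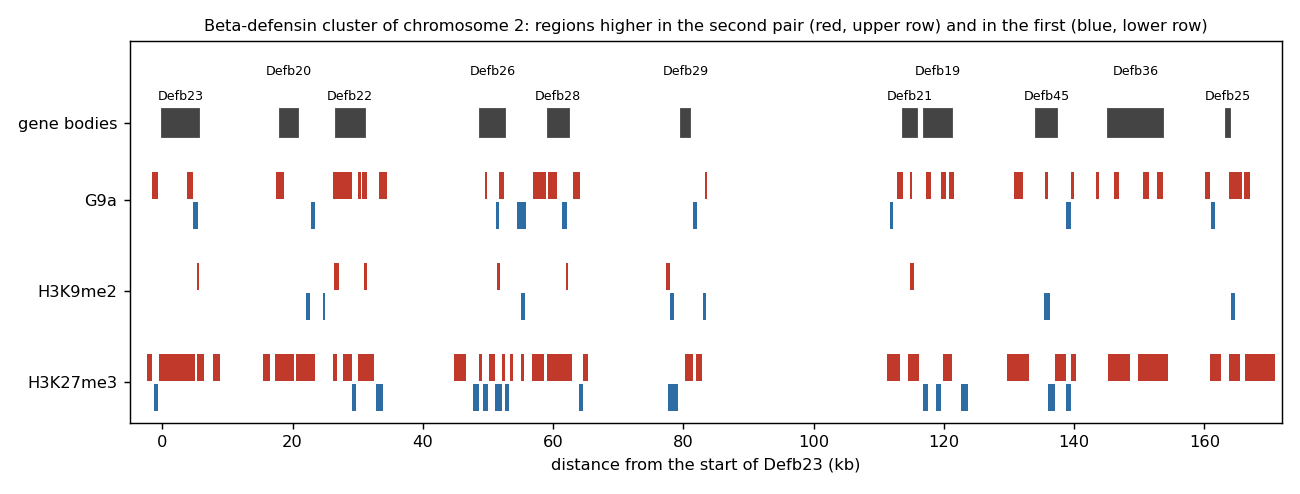
Map of the chromosome 2 cluster, with the distance from the start of Defb23 in kb along the horizontal axis; dark boxes are gene bodies, and for each antibody the upper row (red) shows regions higher in the second pair and the lower row (blue) regions higher in the first. The 28 red G9a and 33 red H3K27me3 regions are spread over all 11 genes, whereas H3K9me2 has 7 regions in each row.

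Of the 11 genes of this cluster, 10 had regions of all 3 antibodies, and the share of all protein-coding genes that did was not counted. Among the 9 with a promoter in the table, only Defb22 had regions of all 3 over it. Its promoter, printed above, lay under a G9a region (chr2:152489751-152490450) with values of 140 and 169 in the second pair and 23 and 82 in the first (log2 1.54). The H3K9me2 region there (chr2:152489951-152490450) had 70 and 128 in the second pair and 50 and 0 in the first (1.94), and the H3K27me3 region (chr2:152489151-152491500) had 782 and 591 in the second pair and 545 and 204 in the first (0.87). The pairs were apart in all 3 regions. Within the gene body an H3K27me3 region (chr2:152486851-152488200) had 372 and 277 in the second pair and 27 and 116 in the first, a log2 difference of 2.17, the highest of all H3K27me3 regions at defensin genes (deposited p 2.05e-38). A G9a region over the same stretch (chr2:152485251-152488100) had 617 and 745 in the second pair and 237 and 500 in the first (0.88).

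The G9a region with the smallest deposited p of all defensin genes lay downstream of Defb45 (chr2:152589851-152591200). Its values were 460 and 305 in the second pair and 32 and 195 in the first (log2 1.74, deposited p 1.36e-33), and the next smallest was over the promoter of Defb28 (chr2:152518201-152519650), with 388 and 335 in the second pair and 116 and 102 in the first (1.72, 4.34e-31). At Defb28 the values of each pair lay close together, and at Defb45 the values of the first pair differed widely. H3K27me3 covered the Defb28 promoter and body (chr2:152518101-152521950), with 1504 and 1650 in the second pair and 1065 and 964 in the first (0.64). A second G9a region ended just upstream of the Defb28 start (chr2:152516001-152517900), with 424 and 372 in the second pair and 64 and 251 in the first (1.33), and one within Defb26 (chr2:152510751-152511550) had 152 and 223 in the second pair and 75 and 16 in the first (2.02). The pairs were apart in all of these.

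For H3K27me3 the broadest region of any defensin gene spanned nearly the whole of Defb23 (chr2:152458501-152464050), with values of 1887 and 1921 in the second pair and 863 and 1089 in the first (log2 0.96, deposited p 3.32e-66). Defb36 had a region of 1749 and 1807 in the second pair and 873 and 1188 in the first (0.79), and the region over the end of Defb20 (chr2:152479551-152482450) had 753 and 500 in the second pair and 134 and 254 in the first (1.69). The pairs were apart in each of these. At the Defb23 start a short H3K9me2 region (chr2:152464351-152464750) had 65 and 82 in the second pair and 1 and 31 in the first (2.13), the highest log2 difference of all H3K9me2 regions at defensin genes. Defb25, at the far end of the cluster, also had regions in all 3 tables, with 3 of 4 G9a regions and all 3 H3K27me3 regions higher in the second pair.

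**Figure D3:**
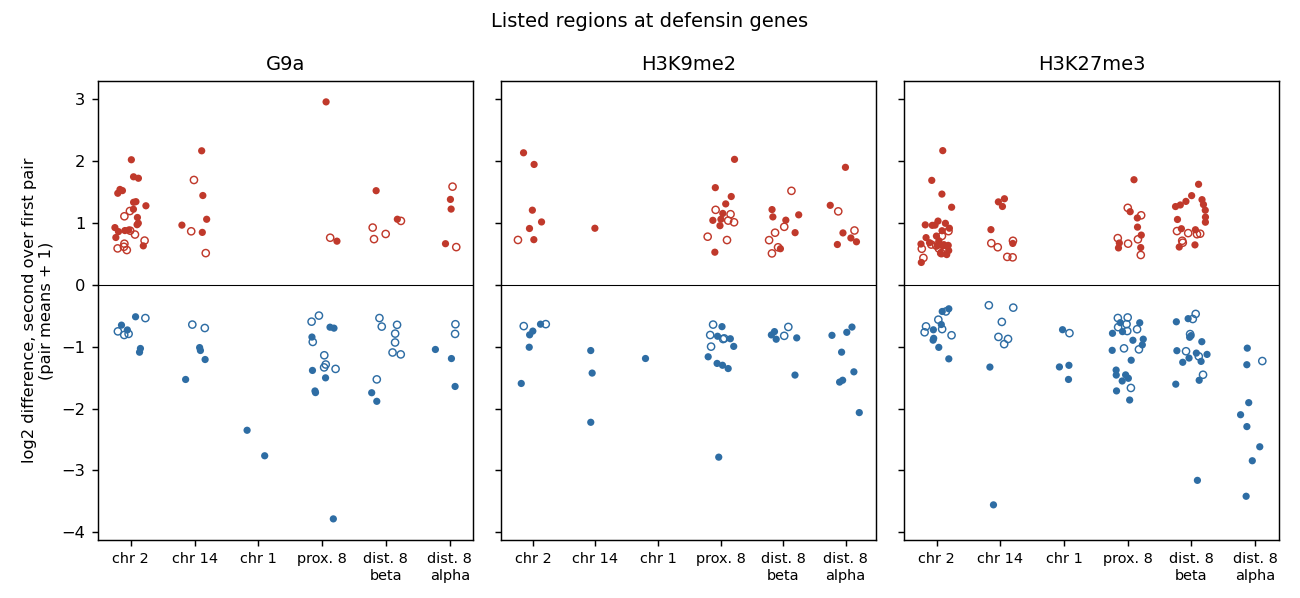
Log2 difference (second over first pair, pair means plus 1) of each listed region at defensin genes, by cluster along the horizontal axis; filled points are regions whose pairs are apart and open points regions whose pairs overlap, with horizontal spread for legibility only. The gap around 0 reflects that the tables list only regions with a difference, the G9a points of chromosome 2 lie mostly above 0, and the H3K27me3 points of alpha-defensin genes all lie below it.

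The 5 genes of chromosome 14 (chr14:62977524-63048606, 71.1 kb) differed from neighbour to neighbour. Defb48, at one end, had an H3K27me3 region past its end (chr14:62973101-62976750) with values of 1312 and 780 in the second pair and 309 and 517 in the first (log2 1.34, deposited p 9.59e-62). A G9a region over its end (chr14:62977301-62977900) had 83 and 157 in the second pair and 21 and 31 in the first (2.16). Near the start of the same gene an H3K27me3 region (chr14:62983801-62984250) was higher in the first pair, with 0 and 15 in the second pair and 152 and 46 in the first (-3.56). Defb30 had 3 G9a and 5 H3K27me3 regions, all higher in the second pair, whereas Defb47 between them had 4 G9a regions, all higher in the first. Defb43 carried all 3 H3K9me2 regions of the cluster that were higher in the first pair, the foremost (chr14:63017351-63017900) with 40 and 9 in the second pair and 84 and 152 in the first (-2.22). For Defb42, an epididymal gene, 3 G9a regions were higher in the second pair, the foremost with 287 and 73 in the second pair and 76 and 34 in the first (1.69), and in none of the 3 were the pairs apart. The cluster sums were 1625 and 1645 in the second pair and 1216 and 1365 in the first for G9a (log2 0.34), 189 and 168 in the second pair and 327 and 431 in the first for H3K9me2 (-1.08), and 4459 and 3871 in the second pair and 3630 and 3397 in the first for H3K27me3 (0.25).

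In the proximal cluster of chromosome 8 (Defb40 to Defb7, chr8:18974914-19497775, 523 kb) regions higher in the first pair prevailed for G9a, 15 of 18, and for H3K27me3, 25 of 39. The G9a values summed to 558 and 1653 in the second pair and 1718 and 1672 in the first (log2 -0.62), so that library 1 of the second pair lay below the other 3, and without it the difference was -0.04. Between the genes of the cluster, 4 of 56 G9a regions (7.14%) were higher in the second pair, and within 500 kb outside it 47 of 145 (32.4%). For H3K27me3 the sums were 5641 and 4160 in the second pair and 7305 and 5669 in the first (-0.40), the higher library of the second pair lying just below the lower one of the first. H3K9me2 had 15 regions higher in the second pair against 14 in the first, with sums of 3265 and 3333 in the second pair and 2942 and 3510 in the first (0.03).

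Defb6, a beta-defensin gene known from skeletal muscle, had 12 regions, 11 of them higher in the first pair and spread over all 3 tables. Its foremost H3K9me2 region, past the gene end (chr8:19229651-19230600), had 15 and 40 in the second pair and 138 and 253 in the first (log2 -2.79, deposited p 1.47e-30). The neighbour Defb46 had an H3K9me2 region (chr8:19239551-19240850) with 100 and 89 in the second pair and 213 and 246 in the first (-1.27) and an H3K27me3 region (chr8:19239501-19241150) with 110 and 128 in the second pair and 287 and 371 in the first (-1.46). Both lay over its promoter, and in both regions the pairs were apart. Defb38 had a G9a region (chr8:19021401-19022000) with 10 and 63 in the second pair and 145 and 104 in the first (-1.74), which was -0.97 without library 1 of the second pair.

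Defb3, an inducible gene of airway epithelium, held the lowest log2 difference of all G9a regions at defensin genes. That region (chr8:19293351-19293850), which overlaps the promoter printed above, had 0 and 15 in the second pair and 164 and 68 in the first (-3.78, deposited p 2.58e-25), and the difference was -2.87 without library 1 of the second pair. Past the end of the gene an H3K9me2 region (chr8:19297101-19298300) was higher in the second pair, with 252 and 271 in the second pair and 91 and 84 in the first (1.57). A G9a region that overlaps it (chr8:19297751-19298400) was higher in the same pair, with 112 and 101 in the second pair and 91 and 39 in the first (0.70). The highest log2 difference of the G9a regions also lay in this cluster, upstream of Defb7 (chr8:19493201-19493650), with 69 and 115 in the second pair and 9 and 13 in the first (2.95), and the adjoining H3K27me3 region over the Defb7 promoter (chr8:19493651-19495450) had 160 and 198 in the second pair and 450 and 254 in the first (-0.97). A further G9a region over the end of Defb7 (chr8:19497601-19498000) had 16 and 31 in the second pair and 81 and 56 in the first (-1.50). Both genes thus held G9a regions of both directions.

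Defb14, the mouse counterpart of human beta-defensin 3, spans 35066 bp and had 23 regions, more than any other defensin gene. Its H3K9me2 regions were mostly higher in the second pair, 6 of 8, its H3K27me3 regions were split 6 and 6, and its 3 G9a regions were higher in the first pair with overlapping pairs. The foremost H3K27me3 region, within the gene (chr8:19170451-19172500), had 200 and 251 in the second pair and 453 and 600 in the first (log2 -1.22, deposited p 1.21e-27). Defb4, which encodes an inducible epithelial peptide, had 2 G9a regions higher in the first pair and 2 H3K27me3 regions higher in the second, the wider, which it shares with Defb14, with 172 and 159 in the second pair and 97 and 92 in the first (0.80). At Defb34 an H3K9me2 region (chr8:19123251-19124100) had 209 and 188 in the second pair and 63 and 33 in the first (2.03), and its neighbour (chr8:19121801-19122850) had 40 and 100 in the second pair and 150 and 211 in the first (-1.35). Defb5 had 442 and 283 in the second pair and 88 and 204 in the first in its foremost H3K9me2 region (1.31).

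On chromosome 1, Defb18 and Defb41 had regions of 1 direction only. Defb41 encodes a peptide of the epididymis. All 2 G9a, 1 H3K9me2 and 5 H3K27me3 regions were higher in the first pair. The G9a region in Defb41 (chr1:18254801-18255400) had 0 and 36 in the second pair and 128 and 128 in the first (log2 -2.76), and that near Defb18 had 0 and 37 in the second pair and 67 and 130 in the first (-2.35). Library 1 of the second pair was listed at 0 in both, and without it the summed difference was -1.62 in place of -2.60. The foremost H3K27me3 region of Defb41 (chr1:18251601-18252900) had 123 and 89 in the second pair and 323 and 293 in the first (-1.53), with both pairs narrow. The surroundings leaned the same way, since 24 of 108 G9a regions (22.2%) and 82 of 297 H3K27me3 regions (27.6%) within 500 kb outside were higher in the second pair.

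In the distal cluster of chromosome 8 (chr8:20892667-21948622, 1056 kb) the beta-defensin genes at its ends and the alpha-defensin genes between them differed. All 10 beta genes had H3K27me3 regions of both directions, against 9188 of all 21887 protein-coding genes and 1299 of the 5034 of at most 5000 bp. Of their regions, 21 were higher in the second pair against 20 in the first, with sums of 6385 and 5192 in the second pair and 5804 and 4836 in the first (log2 0.12). Over their promoters, regions of the second pair prevailed: of the 6 beta genes here with a promoter in the table, Defb9, Defb10, Defb11, Defb13 and Defb15 had an H3K27me3 region higher in the second pair over it, and none had one higher in the first pair, against 26.3% and 9.23% of all genes with a promoter. This count was made after the values were seen. Over the Defb15 promoter (chr8:21931701-21933400) the values were 540 and 322 in the second pair and 288 and 70 in the first (1.26), and over that of Defb11 (chr8:21906251-21907550) they were 272 and 304 in the second pair and 172 and 97 in the first (1.09). For G9a the sums over all 39 genes of the cluster were 896 and 2526 in the second pair and 1958 and 2203 in the first (-0.28), which became 0.28 without library 1 of the second pair. For H3K9me2 they were 4193 and 3594 in the second pair and 3624 and 3168 in the first (0.20). H3K9me2 covered 10.5% of the beta windows in regions higher in the second pair and 4.25% in regions higher in the first. The foremost of these, at Defb33 (chr8:20894351-20895900), had 396 and 226 in the second pair and 79 and 188 in the first (1.21).

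Defb1, the constitutively expressed kidney and epithelial defensin, had 11 regions, and 4 of its 5 H3K9me2 regions were higher in the first pair. One of those 4 (chr8:21780651-21781650) had 150 and 87 in the second pair and 189 and 213 in the first (log2 -0.76). Defb2, an inducible airway defensin, had H3K27me3 regions of opposite direction near each other. One (chr8:21844451-21844800) had 9 and 6 in the second pair and 82 and 68 in the first (-3.16), and the other (chr8:21845951-21846500) had 132 and 82 in the second pair and 41 and 45 in the first (1.30). The pairs were apart in both.

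At alpha-defensin genes H3K27me3 regions had a single direction. All 9 of their H3K27me3 regions, at 7 of the 29 genes (24.1%), were higher in the first pair, and in 8 of them the pairs were apart. A region higher in the first pair was listed for 58.3% of all protein-coding genes and 44.5% of those of at most 5000 bp. The values of the 9 regions summed over 7000 bp to 474 and 248 in the second pair and to 1964 and 1127 in the first (log2 -2.09). The surroundings and some other genes leaned the same way. Between the genes of this cluster 28 of 119 H3K27me3 regions (23.5%) were higher in the second pair, as were 0 of 5 at the defensin genes of chromosome 1 and 22.1% at vomeronasal receptor genes, against 42.7% of all listed regions. Within 500 kb outside the cluster the count was 109 of 222 (49.1%). For G9a, alpha-defensin genes had 5 regions each way, and for H3K9me2 they had 8 each way. A region in either direction was listed for 6 of the 29 genes (20.7%) for G9a, against 62.5% of genes of at most 5000 bp. For H3K9me2 it was 10 genes (34.5%), against 38.5%.

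Defa30 held the H3K27me3 region with the smallest deposited p of all defensin genes. That region, past the end of the gene (chr8:21136751-21138150), had 28 and 43 in the second pair and 463 and 315 in the first (log2 -3.42, deposited p 8.96e-75), and the one before its start (chr8:21132301-21133600) had 70 and 54 in the second pair and 396 and 219 in the first (-2.29). H3K9me2 at the same gene was higher in the second pair. The H3K9me2 region inside the stretch past the gene end (chr8:21136751-21137750) had 128 and 176 in the second pair and 73 and 120 in the first (0.65), that overlapping the stretch before the start (chr8:21132601-21133650) had 236 and 189 in the second pair and 87 and 150 in the first (0.84), and the one over the promoter and body (chr8:21134551-21135550) had 211 and 151 in the second pair and 111 and 112 in the first (0.69). Over both flanks of Defa30 the histone marks thus differed in opposite directions on overlapping bases, with the pairs apart in each of the 5 regions.

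Regions were also listed at other alpha-defensin genes. Defa24, the Paneth cell marker gene, had 2 H3K27me3 regions, with 75 and 69 in the second pair and 204 and 91 in the first (log2 -1.02) and with 122 and 33 in the second pair and 283 and 84 in the first (-1.23). The pairs overlapped in the region with 122 and 33. The other H3K27me3 regions, at Defa3, Defa25, Defa26, Defa29 and Defa34, had log2 differences from -2.84 at Defa25 (3 and 23 in the second pair and 132 and 67 in the first) to -1.29 at Defa26 (24 and 23 in the second pair and 84 and 34 in the first). At Defa26 an H3K9me2 region (chr8:21617751-21618700) had 146 and 243 in the second pair and 73 and 30 in the first (1.90). At Defa35 the foremost H3K9me2 region (chr8:21063051-21063700) had 6 and 51 in the second pair and 141 and 104 in the first (-2.07), and a G9a region over the promoter printed above (chr8:21064701-21065250) had 47 and 126 in the second pair and 32 and 41 in the first (1.22). Defa29 had a G9a region (chr8:21324701-21325900) of 2 and 149 in the second pair and 218 and 258 in the first (-1.64), which was -0.67 without library 1 of the second pair.

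**Figure D4:**
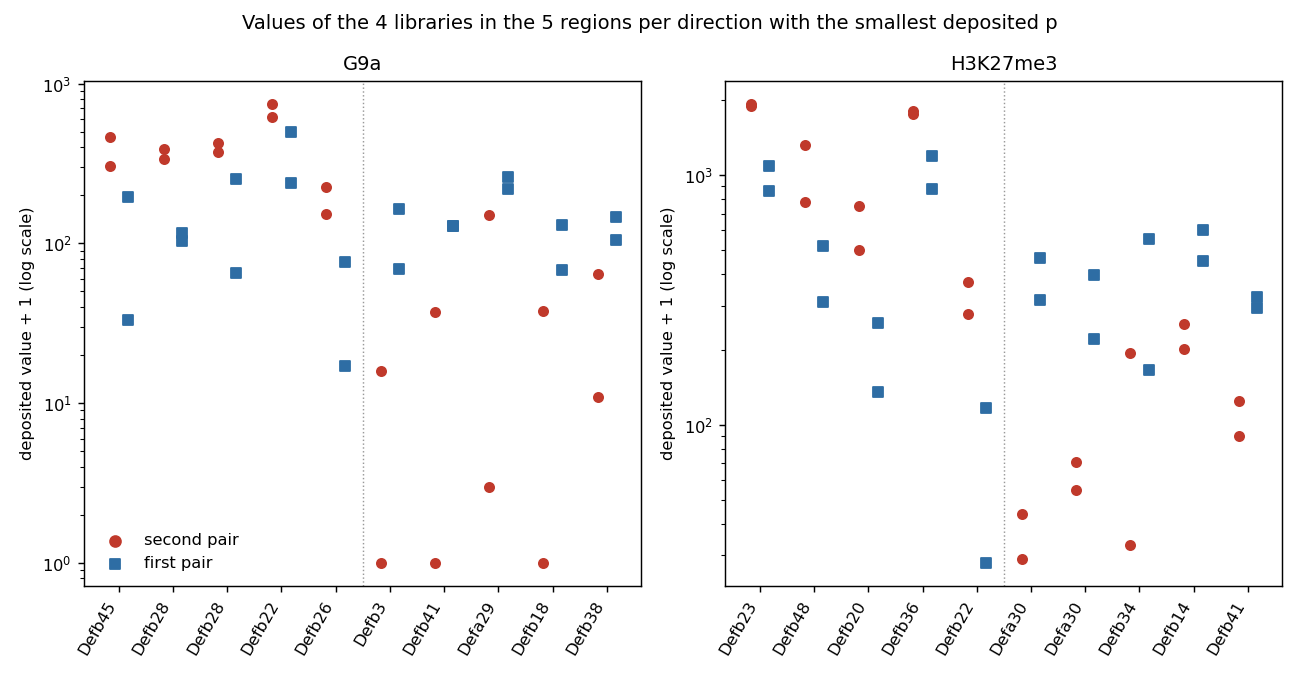
Deposited values plus 1 (log scale) of the 4 libraries in the 5 regions per direction with the smallest deposited p, for G9a and H3K27me3; red circles are the second pair, blue squares the first, and the dotted line parts regions higher in the second pair (left) from those higher in the first (right). In the G9a regions right of the line 1 red point sits at or near the floor at Defb3, Defb41, Defa29 and Defb18, and the H3K27me3 values at Defa30 are 28 and 43 in the second pair against 463 and 315 in the first.

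The 15 defensin genes without a region in any table were all alpha-defensin genes: Defa2, Defa17, Defa20, Defa21, Defa22, Defa23, Defa27, Defa31, Defa33, Defa36, Defa37, Defa39, Defa41, Defa42 and Defa43. Of these, 11 have a promoter in the RefSeq table, and 10 of the 11 promoters were identical, base for base, to that of another alpha-defensin gene: Defa21 to Defa22, Defa23 to Defa31, Defa2 to Defa20, Defa36 to Defa37, and Defa42 to Defa43. Among the 16 alpha-defensin genes with a promoter in the table, none with an identical promoter elsewhere had a region. The rest of the 29 could not be compared, among them Defa24, Defa25 and Defa29, which had regions. The promoters of Defa32, Defa35 and Defa38 were 97.3% to 98.7% identical to another, and all 3 genes had regions. Among the 29 beta-defensin genes with a promoter the closest other promoter was 52.1% to 87.9% identical, and each had a region. How the authors placed reads that match several copies was not given in the sources used here, and the part of such copies in the missing regions was not tested. The share of all protein-coding genes without a region in any table was not counted.

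**Figure D5:**
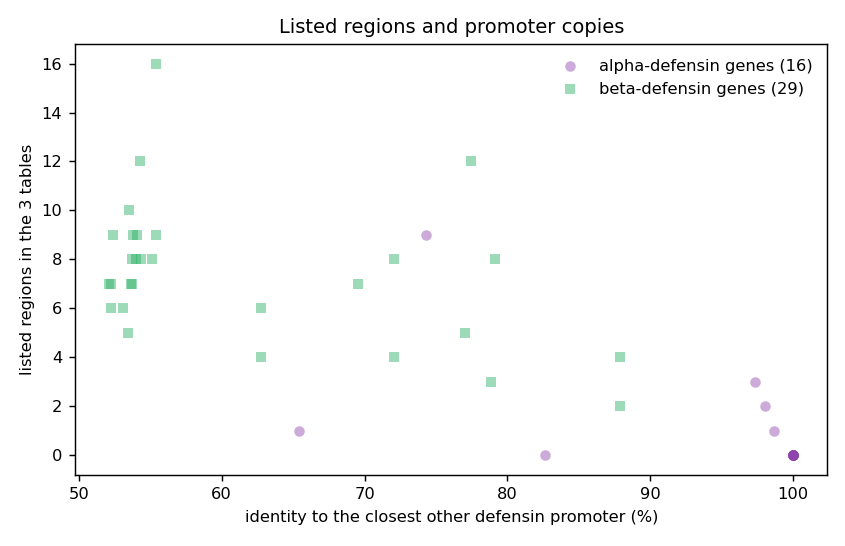
Number of listed regions of a gene over the 3 tables against the identity of its promoter to the closest other defensin promoter (percent of aligned columns), for the 16 alpha-defensin genes (purple circles) and 29 beta-defensin genes (green squares) with a promoter in the RefSeq table. The 10 alpha-defensin genes at 100% lie on top of each other at 0 regions, and the beta-defensin genes, at 87.9% or below, have 2 regions or more.

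Other clustered gene families showed both kinds of coverage. The windows of 53 keratin genes were covered to 32.5% by second-pair regions and 7.97% by first-pair regions for G9a, and to 67.4% and 9.10% for H3K27me3. The 18 Wfdc genes, which encode protease inhibitors of the same mucosal surfaces, had 24.4% and 9.06% for G9a and 55.1% and 9.48% for H3K27me3. The chromosome 2 defensin cluster, with 25.9% and 6.04% for G9a and 54.9% and 13.0% for H3K27me3, lay near these. The 1110 olfactory receptor genes had 3.02% and 6.11% for G9a and 9.80% and 11.8% for H3K27me3, and the proximal chromosome 8 cluster, with 1.06% and 5.62% and with 7.39% and 14.2%, lay nearer to them. The 355 vomeronasal receptor genes had 1.24% and 4.49% for G9a and 3.19% and 11.2% for H3K27me3, so that their G9a coverage lay close to that of the proximal chromosome 8 cluster. These are descriptions, and no test between the families was made.

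Of 30 other genes listed for antimicrobial defence, 27 were found in the gene table. The list was not limited to genes of antimicrobial products, and among others it held Sox9 and Atoh1, which encode transcription factors. Both had an H3K27me3 region higher in the second pair and are among the counts below. For G9a, 18 of the 27 (66.7%) had a region higher in the second pair, against 55.5% of all genes, and 19 (70.4%) had one higher in the first, against 76.7%. For H3K9me2 the counts were 7 (25.9%), against 38.8%, and 11 (40.7%), against 48.1%. For H3K27me3 they were 23 (85.2%), against 50.4%, and 20 (74.1%), against 58.3%. The median length of the 27 genes was 3205 bp. Among genes of at most 5000 bp the shares in the second and the first pair were 35.2% and 47.6% for G9a. They were 23.2% and 24.8% for H3K9me2, and 41.7% and 44.5% for H3K27me3. Each share of the list lay above that of the short genes. The median log2 difference of the regions of the 27 genes was 0.83 for G9a, -0.71 for H3K9me2 and 0.54 for H3K27me3, beside 0.56, 0.53 and -0.37 for the defensin genes. Genes with many regions weigh on these medians. Nod2 held 20 second-pair and 2 first-pair regions for G9a, and 16 and 4 for H3K27me3.

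Fitted again across all regions of each table with limma on log2 values plus 1, no region passed a Benjamini-Hochberg adjusted p of 0.05 for any antibody, at defensin genes or elsewhere. The authors had already selected these regions as differing, so the fit is only a second look and no independent test. The smallest adjusted p at a defensin gene was 0.461 for G9a, 0.389 for H3K9me2 and 0.361 for H3K27me3. Without library 2 of the second pair, which leaves the library with the many values at 0 as the only one of its pair, 14 defensin regions and 56515 regions in all passed for G9a; leaving out any other library gave 0. At an unadjusted p under 0.05 there were 3, 6 and 15 defensin regions, against 15286 (3.94%), 21446 (8.75%) and 67865 (12.3%) of all regions. The authors' deposited p-values are smaller than these, and how they were computed from 2 libraries each was not given in the sources used here. An exact permutation test over 2 libraries against 2 cannot give a two-sided p below 0.333. Each direction stated above therefore rests on the 4 printed values and on the authors' own p.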

How the data were processed

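ChIP-seq libraries of G9a, H3K9me2 and H3K27me3 (2 per condition) and of input (1 per condition) were made from TAC and sham mice. Per the submitters' processing notes, BWA 0.7.10-r789 and SAMtools 1.1 were used with mm10 (GRCm38). The caller of the deposited regions was not given in the sources used here. Each line of the deposited tables joins in 1 cell 4 whole-number values of no stated unit and a -log10 p, all made by the authors; no source says whether the deposited values were scaled, corrected for input or summed, and they were therefore not used as read counts; the depth of the libraries is unknown. No table names the pairs or the replicates.

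Genes came from the RefSeq table of GRCm38.p6. Clusters were joined under 1 Mb (the same 5 under 250 kb). Log2 differences used the pair means plus 1. limma 3.58.1 (R 4.3.3) was run on all regions of a table and tested on simulated data, where changed regions had to be called only at the largest change simulated. Promoters were compared by global alignment (match 1, mismatch -1, gap opening -2, gap extension -0.5; Biopython 1.88), with identity as the share of identical columns. Regions were named by this rule: in each table and direction the 5 with the smallest deposited p, the foremost of each cluster and table, members in all 3 tables (10 by p), members in none, and 8 well-studied members. Others named were chosen after their values were seen. The members and lists were chosen with earlier results of these data known. No columns of per-sample values were left out.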

Additional observations from a re-analysis of the deposited data

How the results depend on the processing

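Of the values recomputed under other settings, 13 turned sign, and 17 counts or medians moved by more than 1.5 times or by more than the spread between libraries. The other 167 did neither, though cluster sums among them that kept their sign changed in size. They include the cluster sums with clusters joined under 250 kb, which could not change because the same 5 clusters formed. Alternatives on cluster sums, other than the gap that joins clusters, were chosen after seeing the data. The counts of genes with a region depended on the window and the p: with the gene body alone, 18 genes had a G9a region higher in the first pair, 19 and 10 an H3K9me2 region higher in the second and in the first pair, and 26 an H3K27me3 region higher in the first pair. At a deposited p of at most 1e-4 the counts were 19 for G9a in the first pair and 18 for H3K9me2 in the second pair and 18 in the first.

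The medians over regions turned sign under several settings, with directions split nearly evenly. With 1 library left out, the G9a median lay between -0.48 and 0.25, the H3K9me2 median between -0.033 and 0.34 and the H3K27me3 median between -0.25 and 0.029. With scaled values the median was 0.71 for H3K9me2 and -0.041 for H3K27me3; with the gene body alone it was 0.92 and 0.48; with a mean value of at least 50 it was 0.44 for H3K27me3. Scaling all libraries to the same median moved the median of all regions by 0.29, 0.17 and 0.29 for G9a, H3K9me2 and H3K27me3, and turned 1, 0 and 0 regions of defensin genes.

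Leaving out 1 library, the summed difference of distal chromosome 8 ranged from -1.21 to 0.28 for G9a and from -0.34 to 0.044 for H3K27me3, where it was 0.13 with scaled values. For H3K9me2 the sums ranged from -0.082 to 0.34 on chromosome 2 and from -0.089 to 0.17 in proximal chromosome 8. Those of proximal chromosome 8 for G9a kept their sign but ranged from -1.60 to -0.036, and those of chromosome 2 ranged from 0.44 to 1.11 for G9a and from 0.43 to 0.65 for H3K27me3. With library 1 alone as the second pair, assumed to vary like the first, limma called 14 G9a regions of defensin genes and 56515 in all; leaving out any other G9a library gave 0 calls, and limma with a trend called 1 H3K9me2 region, not at a defensin gene. The causes were not tested. G9a of chromosome 1 without library 2 of the second pair gave no value, as library 1 is listed at 0. No paired analysis was possible because the tables carry no replicate numbers, so the planned replicate block was not run.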
